A study of Mus musculus with 21 samples.

Results

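The 10 immediate early genes Egr1, Egr2, Egr3, Nr4a1, Nr4a2, Nr4a3, Ier2, Ier3, Ier5 and Dusp1 were followed across every condition of a mouse kidney culture experiment. They were chosen by name, with earlier results of these data known. With all of their probe sets, they make up 10 of the 18193 genes and 21 of the 34945 probe sets with a single gene symbol. All cells were nephron progenitors sorted by FACS at E16.5 from kidneys of mixed-background mice carrying the Six2GFPcre transgene, a bacterial artificial chromosome that expresses GFP and Cre under Six2 control. Each sample held 40000 cells, cultures were kept in DMEM with 10% serum, and the drug was BIO, an inhibitor of the kinase GSK3, at 4 µM. There were 7 groups of 3 arrays: fresh cells without culture, dispersed cells after 24 h in DMSO, dispersed cells after 24 h in BIO, pelleted aggregates after 24 h in DMSO, aggregates after 24 h in BIO, aggregates after 24 h in BIO and another 24 h in DMSO, and aggregates after 48 h in BIO. The medium was changed at 24 h, and no group of aggregates spent 48 h in DMSO alone, so comparisons with the second day also carry time in culture. The labels name the arrays biological replicates without tying each to its own litter, sort or dish, so the p-values measure only how far these arrays scatter, and that scatter may be technical.

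Immediate early genes are switched on within minutes of a growth factor, serum or stress signal, without any new protein having to be made first. Their promoters are classic targets of serum response factor, which binds the CArG box, and of CREB, which binds the cyclic AMP response element TGACGTCA or its shorter core TGACG. Egr1, Egr2 and Egr3 encode zinc finger transcription factors, Nr4a1, Nr4a2 and Nr4a3 encode orphan nuclear receptors that act without a known hormone, and Dusp1 encodes a phosphatase that switches off MAP kinases. Ier2, Ier3 and Ier5 encode small proteins induced by growth factors or stress, of which Ier3 is tied to cell survival and ERK signalling and Ier5 to heat shock factor regulation. In the kidney, growth factor signals through MAP kinase are known to support the progenitor pool, and dissociation and sorting of tissue are known to induce genes of this class.

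Promoter sequence is shown for 5 members because the Nr4a genes and Dusp1 carry several cyclic AMP response element cores and Egr2 a CArG box. The RefSeq table (build GRCm38.p6) matched 7 of the 10 genes, all but Egr1, Egr3 and Ier2. Each line gives the 250 bases before an annotated start, 5′ to 3′ on the strand of the gene, and capitals mark the motif: the CArG box in Egr2, TGACG or its reverse complement CGTCA in the others, and TGACGTCA in Dusp1.
Egr2, start 2 of 5, chr10:67537316-67537565, + strand: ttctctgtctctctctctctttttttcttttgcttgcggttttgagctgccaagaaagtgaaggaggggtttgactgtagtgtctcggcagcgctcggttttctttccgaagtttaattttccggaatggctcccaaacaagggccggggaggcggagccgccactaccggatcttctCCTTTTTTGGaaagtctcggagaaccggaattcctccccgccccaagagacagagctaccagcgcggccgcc
Nr4a1, chr15:101266596-101266845, + strand: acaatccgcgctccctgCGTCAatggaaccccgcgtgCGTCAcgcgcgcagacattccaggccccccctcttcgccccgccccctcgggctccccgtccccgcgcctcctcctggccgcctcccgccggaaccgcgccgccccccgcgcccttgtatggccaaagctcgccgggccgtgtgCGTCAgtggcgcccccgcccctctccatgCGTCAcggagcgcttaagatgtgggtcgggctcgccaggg
Nr4a2, chr2:57124004-57124253, - strand: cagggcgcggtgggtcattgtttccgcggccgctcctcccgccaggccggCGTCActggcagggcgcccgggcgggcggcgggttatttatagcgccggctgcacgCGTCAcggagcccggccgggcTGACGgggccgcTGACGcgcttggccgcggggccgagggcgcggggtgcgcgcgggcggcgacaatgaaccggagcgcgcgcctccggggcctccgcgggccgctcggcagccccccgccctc
Nr4a3, chr4:48045055-48045304, + strand: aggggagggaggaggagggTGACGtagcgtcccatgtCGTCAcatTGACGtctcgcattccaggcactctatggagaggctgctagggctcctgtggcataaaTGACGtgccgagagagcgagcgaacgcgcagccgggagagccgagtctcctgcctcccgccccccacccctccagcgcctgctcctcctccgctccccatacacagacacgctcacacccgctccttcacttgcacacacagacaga
Dusp1, chr17:26508473-26508722, - strand: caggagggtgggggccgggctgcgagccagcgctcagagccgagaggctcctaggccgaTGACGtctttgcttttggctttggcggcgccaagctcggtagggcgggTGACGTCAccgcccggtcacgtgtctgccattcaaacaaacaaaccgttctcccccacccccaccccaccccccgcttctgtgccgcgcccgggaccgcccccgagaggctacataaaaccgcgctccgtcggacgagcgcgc

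The search covered both strands of all 32851 promoters of the table. A CArG box was present in 1.47% of them, TGACGTCA in 1.55% and TGACG in 17.8%. Nr4a1, Nr4a2 and Nr4a3 each held 4 places with TGACG, a number reached by 0.137% of all promoters. Dusp1 held TGACGTCA at position -143 from its start, and its 3 TGACG places, a number reached by 0.688% of promoters, include a pair that overlap inside that longer motif. Egr2 has 5 annotated starts whose windows partly overlap, and 4 of them hold a CArG box, at position -72 before the start shown. The box of starts 3, 4 and 5 is the same one, and it differs from the box in the printed window of start 2. Starts 3, 4 and 5 of Egr2 each also have 2 TGACG places, which the window of start 2 lacks. The windows of Ier3 and Ier5 hold none of these letters. A match describes the letters of the window and was not tested for binding.

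All 21 arrays were similar in overall brightness, with median signals of 87.2 to 106 and 76.0 to 79.6% of genes above background, a signal of 41.8 set from bacterial control probe sets. Replicate arrays correlated at 0.975 to 0.992 across genes. Of 8 nephron progenitor markers, 8 were above background in fresh cells, and Cited1 was below it in all 6 cultured groups. Each of the 7 markers of interstitial stroma were above background in every group, fresh cells included, and 6 of 6 leukocyte markers in fresh cells. The 3′ beta-actin control signal was 2895 to 5479 in aggregates given BIO for 24 h and at least 6634 on every other array. In whole samples such as these, fewer cells of a type and less RNA per cell cannot be told apart.

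Culture in DMSO raised most of the 10 genes above their level in fresh cells. Against fresh cells, 8 were higher in aggregates and 8 in dispersed cells (Nr4a1, Nr4a2, Nr4a3, Egr2, Egr3, Ier3, Ier5 and Dusp1), while Ier2 was lower and Egr1 passed in neither format. Of all genes, 32.9% passed in aggregates (18.4% higher and 14.5% lower) and 33.2% in dispersed cells (15.0% higher and 18.3% lower), at an adjusted p below 0.05 in the limma fit over all 21 arrays. The median change of the 10 genes was 1 on the log2 scale in aggregates, against 0.10 for all genes, and 1.04 in dispersed cells, against -0.03. Both comparisons use the same 3 fresh arrays, and in both the groups did not overlap for 10 of the 10 genes, against 45.6% of all genes in aggregates and 46.8% in dispersed cells.

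**Figure D1:**
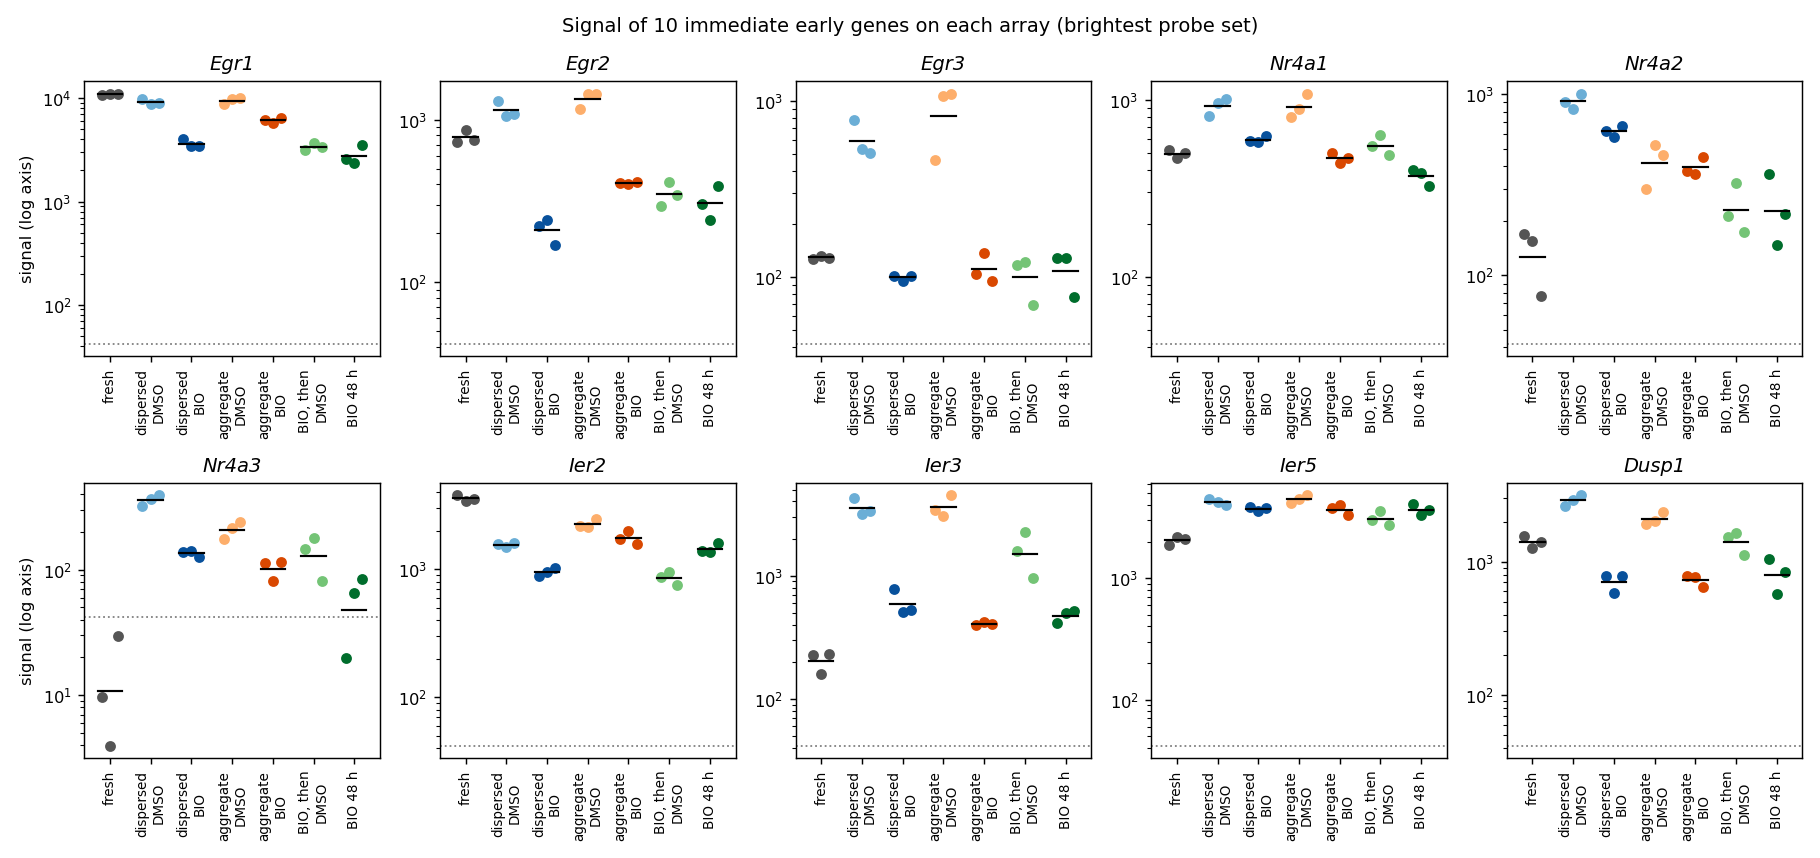
Normalized signal of each gene's brightest probe set on each of the 21 arrays (log axis), by group, with points for arrays, black bars for the group mean on the log scale and a dotted line at the background of 41.8. Ier3 and Nr4a3 show their lowest points in fresh cells, while Egr1 and Ier2 show their highest points there.

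Egr1 was highest in fresh cells. Its normalized signal was 10701, 11111 and 10909 on the fresh arrays, 8705, 9744 and 10121 in DMSO aggregates, and 9889, 8740 and 8962 in dispersed cells in DMSO. All 6 DMSO arrays lay below all 3 fresh arrays, by log2 changes of only -0.20 ± 0.12 (SE, adjusted p = 0.245) and -0.25 ± 0.12 (adjusted p = 0.145). Egr2, best known from the hindbrain and from myelinating cells, read 727, 869 and 752 in fresh cells, 1172, 1449 and 1440 in DMSO aggregates, and 1311, 1057 and 1092 in dispersed cells in DMSO. It rose by 0.79 ± 0.17 in aggregates (adjusted p = 0.00236) and by 0.56 ± 0.17 in dispersed cells (adjusted p = 0.0215), without overlap between culture and fresh arrays. The second of these calls was lost without fresh array 1 (adjusted p = 0.0726), fresh array 3 (0.0629) or dispersed DMSO array 1 (0.0931).

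Egr3, the family member most often studied in muscle spindles and lymphocytes, rose from fresh cells in both formats. It read 127, 132 and 129 in fresh cells, 459, 1066 and 1097 in DMSO aggregates, and 776, 529 and 502 in dispersed cells in DMSO. The increases were 6.24-fold in aggregates (log2 2.64 ± 0.31, adjusted p = 5.53e-06) and 4.54-fold in dispersed cells (2.18 ± 0.31, adjusted p = 3.45e-05). Of the DMSO aggregates, array 1 was the low one, yet it lay above every fresh array. With the mean of both Egr3 probe sets the rise in dispersed cells was 0.57 and did not pass (adjusted p = 0.129).

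On their brightest probe sets, the Nr4a receptors all rose from fresh cells. Nr4a1 read 521, 469 and 499 in fresh cells, 795, 882 and 1084 in DMSO aggregates, and 808, 961 and 1004 in dispersed cells in DMSO. Its rise was near 0.9 in both formats (0.88 ± 0.13, adjusted p = 5.22e-05, and 0.89 ± 0.13, adjusted p = 3.94e-05). Nr4a2, a factor of dopamine neurons, read 168, 154 and 76.4 in fresh cells, 298, 526 and 462 in DMSO aggregates, and 900, 829 and 1005 in dispersed cells in DMSO, gaining 1.72 ± 0.33 (adjusted p = 7.43e-04) and 2.84 ± 0.33 (adjusted p = 4.74e-06). Nr4a3 was below background on all 3 fresh arrays, at 9.70, 3.96 and 29.8. It read 176, 214 and 242 in DMSO aggregates and 319, 368 and 392 in dispersed cells in DMSO. Measured from background, Nr4a3 was at least 4.89-fold higher in aggregates (adjusted p = 1.95e-05) and at least 8.38-fold higher in dispersed cells (adjusted p = 2.68e-06).

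Of the members above background in fresh cells, Ier3 had the largest fold rise. It read 226, 160 and 232 in fresh cells, 3414, 3077 and 4495 in DMSO aggregates, and 4274, 3174 and 3324 in dispersed cells in DMSO, 17.7-fold higher in aggregates (log2 4.15 ± 0.26, adjusted p = 4.71e-09) and 17.5-fold in dispersed cells (4.13 ± 0.26, adjusted p = 4.11e-09). Ier5 rose from 1868, 2194 and 2115 to 4116, 4495 and 4810 in DMSO aggregates (2.17-fold, adjusted p = 1.11e-06) and to 4451, 4219 and 4021 in dispersed cells (2.06-fold, adjusted p = 2.18e-06). Ier2 moved the other way. It read 3790, 3433 and 3569 in fresh cells, 2164, 2133 and 2456 in DMSO aggregates, and 1569, 1484 and 1612 in dispersed cells in DMSO, and fell by 0.68 ± 0.11 in aggregates (adjusted p = 1.45e-04) and by 1.21 ± 0.11 in dispersed cells (adjusted p = 2.69e-07).

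Dusp1, the MAP kinase phosphatase, read 1572, 1269 and 1411 in fresh cells, 1931, 2009 and 2373 in DMSO aggregates, and 2639, 2931 and 3156 in dispersed cells in DMSO. It gained 1.04 ± 0.20 in dispersed cells (adjusted p = 5.99e-04). The gain in aggregates, 0.57 ± 0.20 (adjusted p = 0.0364), was lost without fresh array 2 (0.122), fresh array 3 (0.0792), aggregate array 2 (0.0621) or aggregate array 3 (0.128).

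Marker lists and RNA controls moved in the same comparisons with fresh cells. The 8 nephron progenitor markers summed to 28780 to 30602 in fresh cells, 10789 to 12579 in DMSO aggregates and 11067 to 12282 in dispersed cells in DMSO, with 6 of 8 lower and 0 higher in each format. Of 6 markers of the pretubular aggregate, the first structure of the nephron, 4 were lower in each format and 1 was higher in dispersed cells. The 7 stromal markers summed to 13762 to 14987 in fresh cells, 13766 to 14578 in aggregates and 12777 to 13705 in dispersed cells, but 4 of them were lower and 2 higher in each format. The ratio of the 3′ to the 5′ Gapdh control was 8.74 to 11.1 in fresh cells, 12.7 to 15.3 in DMSO aggregates and 12.1 to 12.6 in dispersed cells in DMSO, without overlap. The part of these in the changes from fresh cells was not tested.

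BIO lowered 7 of the 10 genes in aggregates, namely Egr1, Egr2, Egr3, Nr4a1, Ier2, Ier3 and Dusp1, and the same 7 in dispersed cells, and raised 0 in either format. Of all genes, 30.0% changed in aggregates (17.5% higher and 12.5% lower) and 28.7% in dispersed cells (15.3% higher and 13.4% lower). The median change of the 10 genes was -0.99 in aggregates, against 0.09 for all genes, and -1.37 in dispersed cells, against 0.02. BIO and DMSO arrays did not overlap for 9 of the 10 genes in aggregates and 10 of the 10 in dispersed cells, against 41.4% and 46.8% of all genes. Without quantile normalization 47.1% of all calls in aggregates were rises, against 58.4% with it.

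**Figure D2:**
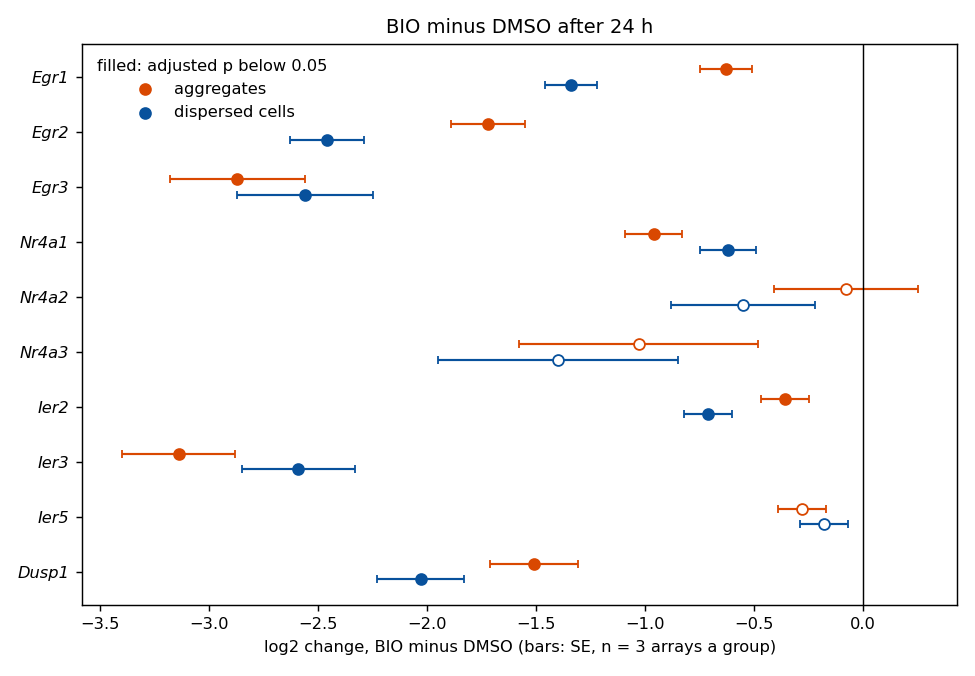
Log2 change of each gene with BIO against DMSO after 24 h (x axis), in aggregates (orange) and dispersed cells (blue), as the fitted value ± SE with n = 3 arrays per group. Filled points have an adjusted p below 0.05, and all 20 points lie left of 0, from -3.14 for Ier3 in aggregates to -0.08 for Nr4a2 in aggregates.

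Ier3, whose rise in culture was described above, was among the deepest falls with BIO. Its signal with BIO was 398, 424 and 405 in aggregates, 8.82-fold below DMSO (log2 -3.14 ± 0.26, adjusted p = 1.30e-07), and 775, 506 and 522 in dispersed cells, 6.03-fold below (-2.59 ± 0.26, adjusted p = 9.97e-07). Every BIO array still lay above every fresh array. In Egr3, BIO arrays read 104, 136 and 95.4 in aggregates (7.29-fold lower, adjusted p = 2.50e-06) and 101, 95.1 and 102 in dispersed cells (5.89-fold lower, adjusted p = 7.83e-06). These Egr3 values did not differ past the threshold from fresh cells (-0.22 ± 0.31, adjusted p = 0.618, and -0.38 ± 0.31, adjusted p = 0.433), with 95% intervals of the difference from -0.88 to 0.43 and from -1.03 to 0.28. In dispersed cells, however, every BIO array lay below every fresh array. With only the arrays compared in the fit, that difference from fresh cells passed (-0.38, adjusted p = 0.023).

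Egr2 fell by 1.72 ± 0.17 in aggregates, to 410, 405 and 414 (adjusted p = 1.43e-06), and by 2.46 ± 0.17 in dispersed cells, to 222, 240 and 169 (adjusted p = 1.93e-08). Egr1 fell less, by 0.63 ± 0.12 in aggregates, to 6210, 5743 and 6456 (adjusted p = 8.60e-04), and by 1.34 ± 0.12 in dispersed cells, to 4053, 3461 and 3417 (adjusted p = 3.94e-07). With BIO, both genes lay below every fresh array, and the changes from fresh cells were -0.83 ± 0.12 for Egr1 (adjusted p = 8.34e-05) and -0.93 ± 0.17 for Egr2 (adjusted p = 6.98e-04) in aggregates. The larger departures from fresh cells were in dispersed cells, -1.59 ± 0.12 for Egr1 (adjusted p = 8.87e-08) and -1.90 ± 0.17 for Egr2 (adjusted p = 5.67e-07). Dusp1 fell by 1.51 ± 0.20 in aggregates, to 789, 769 and 651 (adjusted p = 2.02e-05), and by 2.03 ± 0.20 in dispersed cells, to 783, 584 and 779 (adjusted p = 7.37e-07). Its BIO arrays also lay below every fresh array.

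Within the Nr4a family, Nr4a1 passed in both formats and Nr4a2 and Nr4a3 in neither. Nr4a1 fell by 0.96 ± 0.13 in aggregates, to 503, 438 and 471 (adjusted p = 2.39e-05), and by 0.62 ± 0.13 in dispersed cells, to 586, 579 and 626 (adjusted p = 0.00128). Nr4a2 read 378, 363 and 449 with BIO in aggregates and 628, 579 and 662 in dispersed cells, with changes of -0.08 ± 0.33 (adjusted p = 0.897, 95% interval -0.78 to 0.63) and -0.55 ± 0.33 (adjusted p = 0.257). BIO and DMSO arrays of Nr4a2 overlapped in aggregates and not in dispersed cells. Nr4a3 read 112, 81.9 and 115 in aggregates and 138, 142 and 126 in dispersed cells, all below the DMSO arrays, but its changes of -1.03 ± 0.55 (adjusted p = 0.182) and -1.40 ± 0.55 (adjusted p = 0.0679) did not pass. The SE pools all groups, and Nr4a3 scattered most in fresh cells, all below background, and after 48 h of BIO (log2 SD 1.32 and 1.1). With log2(value + 16) the falls passed at -0.93 (adjusted p = 0.0494) and -1.31 (adjusted p = 0.00778). With only the arrays compared in the fit, Nr4a3 passed in aggregates (adjusted p = 0.0175) and in dispersed cells (6.94e-04), and Nr4a2 in dispersed cells (0.0145).

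Ier2 fell by 0.36 ± 0.11 in aggregates, to 1721, 1978 and 1566 (adjusted p = 0.0182), and by 0.71 ± 0.11 in dispersed cells, to 886, 950 and 1014 (adjusted p = 9.82e-05). The call in aggregates was lost without DMSO array 3 (adjusted p = 0.0834), BIO array 1 (0.0523) or BIO array 3 (0.0873), and with only the arrays compared in the fit (0.112). Ier5 read 3765, 3994 and 3299 in aggregates and 3836, 3599 and 3749 in dispersed cells, and its changes of -0.28 ± 0.11 (adjusted p = 0.074) and -0.18 ± 0.11 (adjusted p = 0.27) did not pass. With the deposited scaling the first of them passed (-0.42, adjusted p = 0.0132).

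Markers and controls moved with BIO as well. Of the 8 progenitor markers 5 were lower and 3 higher in aggregates, and 5 were lower and 2 higher in dispersed cells. Cited1, counted among the lower ones in both formats, had mean signals below background with BIO and with DMSO. Of the 6 pretubular markers 5 were higher in aggregates, their sum being 12092 to 14339 with BIO and 3338 to 4452 with DMSO, and 1 was higher in dispersed cells, with sums of 9473 to 10587 and 3834 to 4148. Among the 5 was Fgf8, whose mean signal was below background in both groups of aggregates (27.9 with BIO and 3 with DMSO). In each format 5 of the 7 stromal markers were lower with BIO and 1 was higher. The summed signal of the stromal markers was 4179 to 4474 with BIO and 13766 to 14578 with DMSO in aggregates, and 3470 to 3722 against 12777 to 13705 in dispersed cells. The 6 leukocyte markers summed to 906 to 1518 with BIO against 1603 to 1854 in aggregates and to 603 to 769 against 1467 to 1784 in dispersed cells, with Ptprc and Tyrobp below background in dispersed cells with BIO and Ptprc also in DMSO aggregates. In aggregates 1 leukocyte marker was lower and 1, Cd68, was higher with BIO (211 against 128), while 4 were lower in dispersed cells. The Gapdh 3′ to 5′ ratio was 9.37 to 10.1 with BIO and 12.1 to 12.6 with DMSO in dispersed cells, and 10.4 to 13.8 and 12.7 to 15.3 in aggregates, where the ranges overlapped. The part of these in the falls was not tested. Once the 3′ beta-actin control was added to the model, the fall of Egr1 in aggregates was -0.67 and no longer passed (adjusted p = 0.0745), and the other 6 falls passed.

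Set against fresh cells, BIO cultures at 24 h split the 10 genes evenly. Nr4a2, Nr4a3, Ier3 and Ier5 were higher and Egr1, Egr2, Ier2 and Dusp1 lower, in aggregates and in dispersed cells alike, where 33.7% of all genes passed in aggregates (21.9% higher and 11.8% lower) and 25.9% in dispersed cells (12.7% higher and 13.3% lower). The median change was -0.15 in aggregates, against 0.18 for all genes, and -0.06 in dispersed cells, against a value of 0 for all genes. Ier3 was 2.01-fold above fresh cells in aggregates with BIO (adjusted p = 0.00695) and 2.89-fold in dispersed cells (adjusted p = 3.12e-04). Nr4a3 was at least 2.40-fold (adjusted p = 3.70e-04) and at least 3.18-fold above them (adjusted p = 1.31e-04). With the 3′ beta-actin covariate 4 of the 8 calls in aggregates were lost (Egr2 at adjusted p = 0.0966, Nr4a3 at 0.169, Ier3 at 0.489 and Dusp1 at 0.116).

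**Figure D3:**
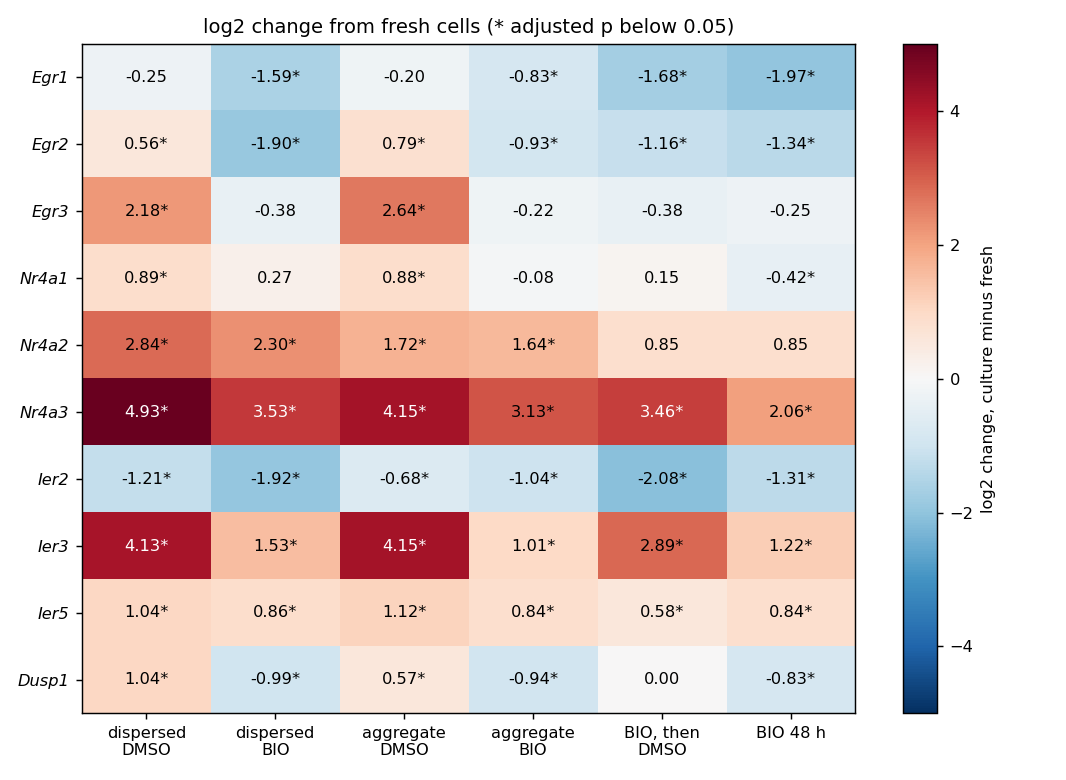
Log2 change of each gene from fresh cells in each cultured group, as colour and printed value, with an asterisk where the adjusted p is below 0.05. Nr4a2, Nr4a3, Ier3 and Ier5 are positive in every column and Egr1 and Ier2 are negative in every column. The Nr4a3 values are fitted values against a group below background.

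The falls with BIO in aggregates and in dispersed cells were compared directly by an interaction term, which was past the threshold for 0 of the 10 genes in the limma fit (3 had an unadjusted p below 0.05) and for 1.57% of all genes. Egr1 came closest, its fall being smaller in aggregates by 0.71 ± 0.17 (adjusted p = 0.0573). Egr1 passed at an adjusted p of 0.0128 to 0.0494 under 7 of the 11 alternative settings that kept all arrays of the groups compared, among them the deposited scaling (0.048) and the leaving out of dim genes (0.0445). For Egr2 the difference was 0.74 ± 0.25 (adjusted p = 0.191) on its brightest probe set and 1.39 on the mean of its probe sets, where it passed (adjusted p = 0.031). The other 8 differences ran from -0.55 to 0.52, and a miss of the threshold does not show equal responses.

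In DMSO, only Ier2 among the 10 passed, higher in aggregates by 0.53 ± 0.11 (adjusted p = 0.0196), where 2.62% of all genes passed (1.84% higher and 0.786% lower). That call was lost without dispersed DMSO array 1 (adjusted p = 0.0605), 2 (0.0625) or 3 (0.056) or aggregate DMSO array 3 (0.075). Nr4a2 was lower in DMSO aggregates, without overlap, by 1.12 ± 0.33 (adjusted p = 0.083, and 0.0422 with a trend and robust prior), and 4 of the 10 genes did not overlap between formats, against 27.6% of all genes. In BIO, Egr1 was higher in aggregates by 0.75 ± 0.12 (adjusted p = 9.14e-04), Egr2 by 0.98 ± 0.17 (adjusted p = 0.00177) and Ier2 by 0.88 ± 0.11 (adjusted p = 1.05e-04), 3 of the 10 genes where 17.2% of all genes passed (12.6% higher and 4.65% lower). Formats did not overlap for 7 of the 10 genes in BIO, against 40.3% of all genes. The other 4 were lower in aggregates without passing, with differences of -0.34 ± 0.13 for Nr4a1 (adjusted p = 0.0739), -0.65 ± 0.33 for Nr4a2 (0.188), -0.41 ± 0.55 for Nr4a3 (0.654) and -0.53 ± 0.26 for Ier3 (0.176). Nr4a1 passed with the deposited scaling (-0.51, adjusted p = 0.0201) and with array weights (-0.35, adjusted p = 0.031), and Nr4a2 with only the arrays compared (adjusted p = 0.0304). The median of all genes was itself shifted by 0.18 in this comparison (0.05 with the deposited scaling), and that of the 10 genes was 0.01. With the 3′ beta-actin covariate, which is low in BIO aggregates, none of the 3 passed (adjusted p = 0.094, 0.0981 and 0.0676).

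When BIO was withdrawn for the second day, Ier3, Dusp1 and Nr4a1 were higher and Ier2 was lower than with BIO kept, 4 of the 10 genes where 20.4% of all genes passed (9.29% higher and 11.1% lower). The median difference was 0.23, against -0.06 for all genes. Ier3 read 1588, 2270 and 961 after withdrawal and 414, 495 and 515 with BIO kept, 3.2-fold higher without overlap (log2 1.68 ± 0.26, adjusted p = 1.63e-04). Dusp1 read 1532, 1637 and 1119 against 1050, 572 and 838, a gain of 0.83 ± 0.20 (adjusted p = 0.00648). Nr4a1 read 549, 629 and 485 against 403, 384 and 326, a gain of 0.58 ± 0.13 (adjusted p = 0.00359). In each of these 3 genes all withdrawn arrays lay above all arrays with BIO kept.

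Ier2 read 863, 951 and 748 after withdrawal and 1379, 1368 and 1611 with BIO kept, and was lower after withdrawal by a log2 change of -0.77 ± 0.11 (adjusted p = 6.90e-05). None of the 3 Egr genes passed. After withdrawal Egr1 read 3174, 3655 and 3363, Egr2 295, 415 and 346, and Egr3 117, 121 and 69.4, against 2578, 2383 and 3517, 305, 243 and 392, and 128, 129 and 77.0 with BIO kept. These ranges overlapped, with differences of 0.28 ± 0.12 (adjusted p = 0.125), 0.18 ± 0.17 (adjusted p = 0.54) and -0.13 ± 0.31 (adjusted p = 0.834). Without 48 h BIO array 3, the highest of its group in Egr1, the Egr1 difference was 0.45 (adjusted p = 0.00563).

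The remaining members overlapped as well. Nr4a3 read 145, 179 and 81.4 after withdrawal and 19.6, 65.6 and 84.9 with BIO kept (1.40 ± 0.55, adjusted p = 0.0864), and passed without 48 h BIO array 3 (1.80, adjusted p = 0.0441). Nr4a2 read 211, 324 and 173 against 364, 147 and 218, and Ier5 2986, 3560 and 2722 against 4089, 3287 and 3670, neither passing (adjusted p = 0.995 and 0.132). Other probe sets above background on every array gave different calls. Nr4a2 was higher after withdrawal on 1450750_a_at (0.56 ± 0.14, adjusted p = 0.0141 over all probe sets) but did not pass on 1447863_s_at (0.66 ± 0.24, adjusted p = 0.0805). Ier5 was lower on 1460009_at (-0.40 ± 0.11, adjusted p = 0.0195). When only the 6 arrays compared were fitted, Nr4a1 (adjusted p = 0.0787) and Dusp1 (0.135) no longer passed. Stromal markers summed to 10933 to 12290 after withdrawal and to 2179 to 2752 with BIO kept, and all 7 were higher after withdrawal. Of the 8 progenitor markers 3 were higher and 2 lower, with Wt1 at 3903 against 605 and Gdnf at 82.2 against 1024. The pretubular markers summed to 15031 to 20021 against 12049 to 13365, with 3 of 6 higher, and 2 of 6 leukocyte markers were higher. The Gapdh 3′ to 5′ ratio was 10.2 to 12.4 after withdrawal and 6.34 to 8.97 with BIO kept, without overlap. The part of these in the differences was not tested.

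**Figure D4:**
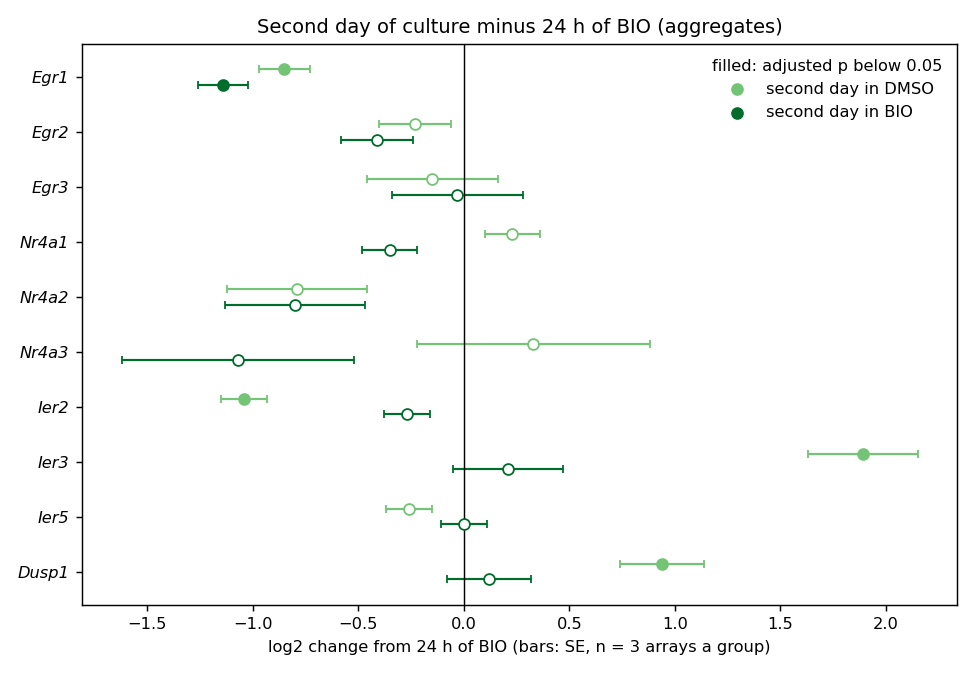
Log2 change of each gene in aggregates from 24 h of BIO to the end of the second day (x axis), with DMSO (light green) or BIO (dark green) on that day, as the fitted value ± SE with n = 3 arrays per group. Filled points have an adjusted p below 0.05: Ier3 and Dusp1 lie to the right and Egr1 and Ier2 to the left with DMSO, and Egr1 alone is filled with BIO.

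Both second-day groups can be set against aggregates at 24 h of BIO, whose 3 arrays they share. A second day of BIO lowered Egr1, by 1.14 ± 0.12 (adjusted p = 6.24e-06), and no other member passed, where 20.8% of all genes did (8.05% higher and 12.8% lower). A day of DMSO raised Ier3 by 1.89 ± 0.26 (adjusted p = 6.19e-05) and Dusp1 by 0.94 ± 0.20 (adjusted p = 0.00237) and lowered Egr1 by 0.85 ± 0.12 (adjusted p = 9.86e-05) and Ier2 by 1.04 ± 0.11 (adjusted p = 3.67e-06), 4 of the 10 genes where 24.9% of all genes passed (8.66% higher and 16.2% lower). Egr1 thus fell from 24 h of BIO to the second day in either medium. With the 3′ beta-actin covariate, the changes of Egr1 (adjusted p = 0.109), Ier2 (0.0798) and Dusp1 (0.262) in the DMSO day no longer passed.

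Relative to fresh cells, the second-day aggregates ended low in Egr1, Egr2 and Ier2. Egr1 was 3.22-fold lower after BIO and then DMSO (adjusted p = 4.40e-08) and 3.91-fold lower after 48 h of BIO (adjusted p = 4.58e-09), Egr2 2.24-fold (adjusted p = 1.13e-04) and 2.53-fold lower (adjusted p = 1.72e-05), and Ier2 4.23-fold (adjusted p = 8.72e-10) and 2.48-fold lower (adjusted p = 1.18e-07). Ier3 stayed 7.42-fold higher after BIO and then DMSO (adjusted p = 4.58e-07) and 2.32-fold higher after 48 h of BIO (adjusted p = 0.00168). In all, 3 of the 10 genes were higher and 3 lower after BIO and then DMSO, where 25.3% of all genes passed (13.2% higher and 12.1% lower), and 3 were higher and 5 lower after 48 h of BIO, where 33.4% did (18.4% higher and 15.0% lower). Dusp1 after BIO and then DMSO overlapped the fresh arrays (adjusted p = 0.997, 95% interval -0.42 to 0.42). Nr4a3 after 48 h of BIO was at least 1.14-fold above fresh cells (adjusted p = 0.00783), although its array 1, at 19.6, was below background and within the fresh range. The fall of Nr4a1 after 48 h of BIO, -0.42 ± 0.13 (adjusted p = 0.0168), was lost without fresh array 1 (0.0565) or 48 h BIO array 3 (0.0794).

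Ordered by level, the 10 genes fell into different patterns over the 7 groups. Highest in fresh cells were Egr1 and Ier2, highest in dispersed cells in DMSO were Nr4a1, Nr4a2, Nr4a3 and Dusp1, and highest in DMSO aggregates were Egr2, Egr3, Ier3 and Ier5. Several of these first places were shared within the spread, since the arrays of the leading DMSO group overlapped those of the other DMSO group in Egr2, Egr3, Nr4a1, Ier3 and Ier5. Fresh cells were lowest in Nr4a2, Nr4a3, Ier3 and Ier5. Over the 7 group means, which share arrays and scaling, Egr1 correlated with Egr2 at 0.88 and with Ier2 at 0.80, Nr4a2 with Nr4a3 at 0.87 and Ier3 with Nr4a3 at 0.86, while Ier2 with Nr4a3 was at -0.54.

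Genes outside the list had similar patterns over these means. Among 6913 genes above background in at least 1 group and ranging over at least 1 log2 unit, Hbegf (0.995), which encodes a growth factor of the EGF family, Myof (0.996), Nedd4l (0.993), Cryab (0.993) and Tagln2 (0.993) were closest to Ier3. Hbegf had mean signals of 137 in fresh cells, 4422 in DMSO aggregates, 242 in BIO aggregates and 1565 after BIO and then DMSO. Closest to Nr4a1 were Prkci (0.978), Nr3c1 (0.976), which encodes the glucocorticoid receptor, Cpa6 (0.975), Eea1 (0.971) and Tsc22d2 (0.969). The mean signal of Cpa6 was above background only in dispersed cells in DMSO (168) and DMSO aggregates (124), and ran from 5.19 to 25.6 elsewhere. Closest to Egr1 were Tcf24 (0.985), Dtx3l (0.984), St6galnac4 (0.982), Itih2 (0.979) and Npr2 (0.975). These are correlations over 7 points and are given as a description.

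The other probe sets showed how far these results depend on the brightest one. Of the 10 genes 5 had 1 probe set and 5 had several, and of the 11 further probe sets 3 were above background on every array and 3 on none. The second Egr2 probe set (1427682_a_at) followed the first with r = 0.95 over 21 arrays. It read 858, 726 and 1109 in DMSO aggregates and 255, 192 and 229 in BIO aggregates. In dispersed cells the readings were 602, 1043 and 504 without the drug against 30.1, 67.6 and 34.4 with it, of which 2 were below background. The changes were -1.98 ± 0.31 (adjusted p = 1.92e-04 over all probe sets) and -4.01 ± 0.31 (adjusted p = 9.07e-08). Against fresh cells, its fall passed in dispersed cells with BIO (-3.03 ± 0.31, adjusted p = 3.22e-06). In BIO aggregates it did not pass (-0.62 ± 0.31, adjusted p = 0.15), unlike the brightest probe set. A second Ier5 probe set (1460009_at, r = 0.93) read 995, 1051 and 1219 in DMSO aggregates and 765, 673 and 701 with BIO. On this probe set the fall of Ier5 passed (-0.61 ± 0.11, adjusted p = 6.10e-04), unlike on the brightest one.

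**Figure D5:**
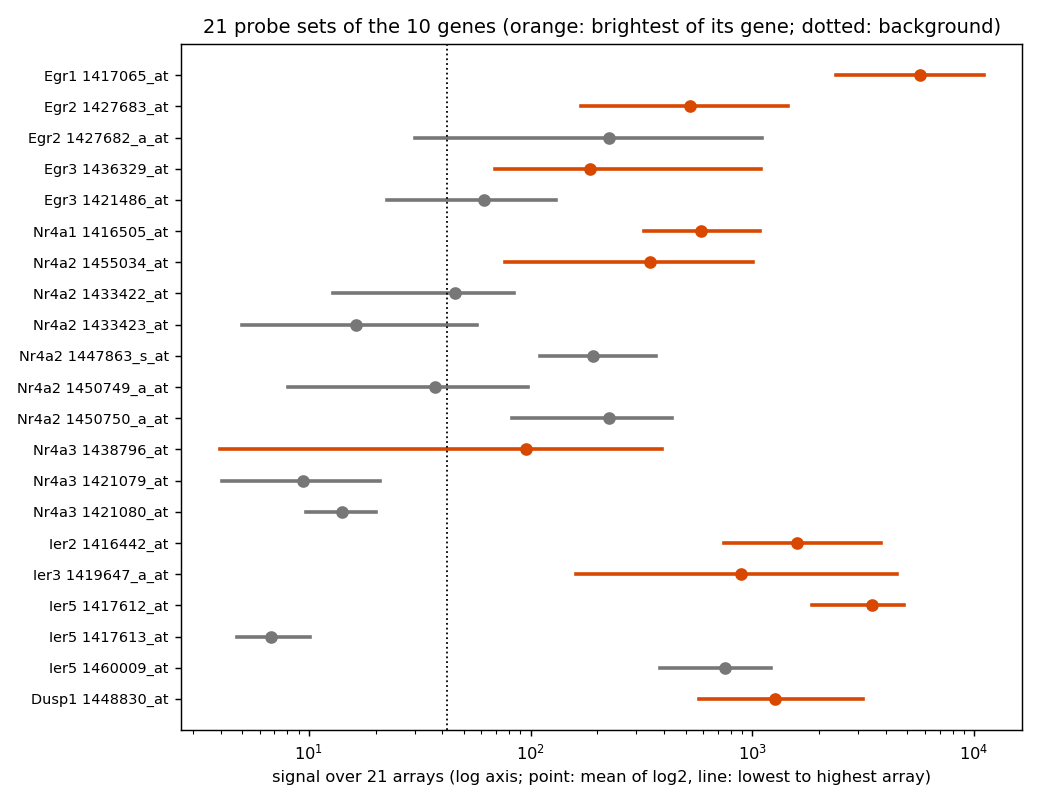
Signal of all 21 probe sets of the 10 genes over the 21 arrays (log axis), as the mean on the log scale (point) and the range from the lowest to the highest array (line), with the brightest probe set of each gene in orange and the background of 41.8 dotted. The lines of 2 Nr4a3 probe sets and 1 Ier5 probe set lie wholly below background.

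Nr4a2 had 6 probe sets, and they disagreed. The probe sets 1450750_a_at (r = 0.90) and 1447863_s_at (r = 0.70) followed the brightest, and both were lower in DMSO aggregates than in dispersed cells in DMSO, by 0.81 ± 0.14 (adjusted p = 0.00828) and 1.07 ± 0.24 (adjusted p = 0.0296), and lower in BIO aggregates than in dispersed cells in BIO (-0.66, adjusted p = 0.0059, and -0.87, adjusted p = 0.0238). The dim probe set 1450749_a_at (r = 0.13) read 8.10, 13.8 and 9.65 with BIO in aggregates, all below background, against 65.9, 33.2 and 30.4 in DMSO, where 2 of 3 arrays were also below background. Its fall passed (adjusted p = 0.015), and that of the brightest probe set did not. With the mean of all probe sets, the rise of Nr4a2 from fresh cells was 0.58 in DMSO aggregates (adjusted p = 0.0509) and 0.34 in BIO aggregates (adjusted p = 0.253). In DMSO aggregates against fresh cells, 1450750_a_at was higher (1.32 ± 0.14, adjusted p = 3.57e-06) and 1447863_s_at did not pass (0.42 ± 0.24, adjusted p = 0.211). The 3 dimmer probe sets did not pass there either. The second Egr3 probe set (1421486_at) ran from 22.6 to 130, was above background on 17 arrays and did not follow the first (r = -0.27). On it the fall of Egr3 with BIO was not seen past the threshold. Its changes were -0.26 ± 0.49 in aggregates (adjusted p = 0.769 over all probe sets) and 0.33 ± 0.49 in dispersed cells (adjusted p = 0.714). Over all probe sets, 10 of 21 were lower with BIO in aggregates, where 10.9% of all probe sets were, and 8 of 21 in dispersed cells, where 10.9% were.

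Other immediate early genes, 36 in number and likewise listed with earlier results of these data known, were counted beside the members. BIO lowered 22 and raised 1 of them in aggregates (median -0.53) and lowered 24 and raised 0 in dispersed cells (median -1.03), where 12.5% and 13.4% of all genes were lower and 17.5% and 15.3% higher. The matrix proteins Ccn2 and Ccn1 led in aggregates, with Ccn2 at 1113 against 10701 (-3.26 ± 0.11, adjusted p = 9.49e-12) and Ccn1 at 959 against 8524 (-3.15 ± 0.16, adjusted p = 4.69e-10). Myc, a regulator of growth, fell by 1.79 ± 0.22 (adjusted p = 1.08e-05). Withdrawal raised 11 of the 36 and lowered 3 (median 0.14), against 9.29% of all genes higher and 11.1% lower, led by Ccn2 at 8361 against 945 (3.14 ± 0.11, adjusted p = 2.11e-11). Culture in DMSO raised 22 and lowered 3 in aggregates (median 1.04) and raised 21 and lowered 1 in dispersed cells (median 1.34), against 18.4% and 15.0% of all genes higher and 14.5% and 18.3% lower. Fosl2, a partner in AP-1, was at 5761 in aggregates and 6308 in dispersed cells against 376 in fresh cells (adjusted p = 2.74e-10 and 1.36e-10).

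Lists of factors known to act upstream or downstream of the members were counted with BIO, beside the same shares of all genes, 12.5% lower in aggregates and 13.4% in dispersed cells. Of 7 genes for serum response factor and its partners, 3 fell with BIO in aggregates (median of the 7 -0.32) and 2 in dispersed cells (median -0.06), Srf itself by 0.52 ± 0.09 (adjusted p = 4.22e-04) and 0.61 ± 0.09 (adjusted p = 9.56e-05). Of 7 measured CREB and cyclic AMP genes, 4 fell in aggregates (median -0.35) and 2 in dispersed cells (median -0.01), the phosphodiesterase Pde4d by 1.28 ± 0.21 (adjusted p = 1.62e-04) and 0.95 ± 0.21 (adjusted p = 0.00213). Among 5 corepressors of Egr proteins and partner receptors of Nr4a proteins, Nab1 and Nab2, which bind and restrain Egr1 and Egr2, fell in both formats, and the medians of the 5 were -0.60 and -0.13. Nab1 was at 944 against 3764 in aggregates (-1.99 ± 0.17, adjusted p = 1.62e-07) and 1131 against 4161 in dispersed cells (-1.88 ± 0.17, adjusted p = 2.78e-07). After withdrawal Nab1 was higher by 1.05 ± 0.17 (adjusted p = 2.27e-04) and Nab2 by 0.96 ± 0.20 (adjusted p = 0.00236) than with BIO kept.

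Of 17 MAP kinase phosphatases and FGF feedback genes, relatives of Dusp1 by role, BIO lowered 9 and raised 2 in aggregates (median -0.41) and lowered 11 and raised 0 in dispersed cells (median -0.73). Dusp6, an ERK phosphatase, fell by 1.33 ± 0.11 (adjusted p = 7.93e-08) and 1.76 ± 0.11 (adjusted p = 2.50e-09). Withdrawal lowered 5 and raised 1 of the 17 (median -0.13), against 11.1% of all genes lower and 9.29% higher (median -0.06). Heat shock genes, which dissociation of tissue can induce, were lower with BIO for 2 of 11 in aggregates and 3 of 11 in dispersed cells, with 1 higher in each and a median of -0.04 in both. In aggregates these counts lie near the shares of all genes, 12.5% lower and 17.5% higher, and in dispersed cells 13.4% of all genes were lower and 15.3% higher. Within the list Hspb1 fell, with changes of -2.90 ± 0.18 (adjusted p = 3.63e-09) and -3.26 ± 0.18 (adjusted p = 7.32e-10). Of 8 NF-kB feedback genes, set against the same shares, 1 was lower and 2 were higher in aggregates (median 0.05), and 2 were lower and 1 was higher in dispersed cells (median -0.38), where Tnfaip3 fell by 1.71 ± 0.17 (adjusted p = 8.44e-07). Cxcl1 rose in both formats, by 1.49 ± 0.28 in aggregates (adjusted p = 6.08e-04) and by 1.36 ± 0.28 in dispersed cells (adjusted p = 0.00135).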

How the data were processed

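The authors deposited 1 linear signal intensity per probe set and array, from 0.1 to 18025, with RNA amplified in 2 rounds and labelled with biotin per the labels' protocols. Software, scaling and genome build of these deposited intensities were not given in the sources used here. Of 45101 probe sets, 34945 had 1 symbol, 932 several, 9160 none and 64 were controls, and names were updated through RefSeq. Signals were taken to log2(value + 1), quantile normalized and returned to the linear scale for display. A gene's values are those of its brightest probe set by mean over the arrays, and all 21 member probe sets were also fitted.

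Groups were compared in limma 3.58.1 (R 4.3.3) over all 21 arrays, with 14 residual and 1.625 prior degrees of freedom. The Benjamini-Hochberg adjustment ran over 18193 genes, with a threshold of 0.05. The 14 comparisons cover BIO, its withdrawal, aggregation, the interaction and each culture against fresh cells. The background level is the 95th percentile among 27 bacterial spike probe sets. Where every array of a group lay below it, a fold is given from background as at least that size. At most 0.288% of values were identical between any pair of arrays. With 3 arrays per group, precision is limited.

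The members and gene lists were chosen with earlier results of these data known. Named genes are all members, up to 4 genes with the largest passing change per list and comparison, and the 5 genes closest to Egr1, Nr4a1 and Ier3 over the group means. The fit was tested on simulated data. Alternatives were the deposited scaling, median centring, log2(value + 16), leaving out dim genes, averaging a gene's probe sets or fitting each separately, only the arrays compared, array weights, a trend and robust prior, a block for replicate number, a covariate for 3′ beta-actin, and leaving out each array.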

Additional observations from a re-analysis of the deposited data

Results flagged for a closer look

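On the brightest probe sets, the response to BIO differed past the threshold between formats in none of the 10 members. Egr1 came closest (adjusted p = 0.0573 for the interaction) and passed under several alternative settings. In relatives in the lists the response did differ, each by an interaction term in the limma fit over all genes. Nab2, a corepressor of Egr proteins, fell less with BIO in aggregates (-1.30) than in dispersed cells (-2.66), a difference of 1.35 ± 0.28 (adjusted p = 0.0234). The MAP kinase phosphatase Dusp10 fell by 1.35 and by 2.41, a difference of 1.06 ± 0.24 (adjusted p = 0.0388). The receptor kinase inhibitors Spry2 and Spry1 differed by 0.99 ± 0.23 (adjusted p = 0.0439, with -0.41 and -1.40) and by 0.59 ± 0.13 (adjusted p = 0.0392, with -1.22 and -1.81). Ccn2 differed the other way, by -0.82 ± 0.16 (adjusted p = 0.014), with changes of -3.26 in aggregates and -2.45 in dispersed cells. The second Egr2 probe set, 1427682_a_at, differed by 2.04 ± 0.44 (adjusted p = 0.0426 over all probe sets), with -1.98 and -4.01, and in dispersed cells with BIO it was above background on 1 of 3 arrays.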

How the results depend on the processing

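Of 154 counts of members past the threshold recomputed with all arrays of the fit kept or only those compared, 139 stayed within 1.5 times. Of 2440 results of single members, arrays left out included, 2362 kept direction and side of the threshold, 38 lost a call, 40 gained one and 0 reversed. The interaction count went from 0 to 1 with the deposited scaling, median centring, log2(value + 16), dim genes left out, the mean of all probe sets, only the arrays compared, array weights, and the trend and robust prior. With only the arrays compared, the withdrawal count went from 4 to 2, aggregation in DMSO from 1 to 0, and 48 h of BIO against fresh cells from 8 to 5. Aggregation in DMSO reached 2 with the trend and robust prior. With the 3′ beta-actin covariate, aggregation in BIO went from 3 to 0, BIO aggregates against fresh cells from 8 to 4, and the DMSO day after BIO from 4 to 1. The causes were not tested.

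With each array left out in turn, counts ran from 6 to 7 for BIO in aggregates, 7 to 7 in dispersed cells, 0 to 0 for the interaction, 4 to 6 for withdrawal, 0 to 1 for aggregation in DMSO and 3 to 3 in BIO. Against fresh cells they ran from 8 to 9 for DMSO aggregates and dispersed cells, 8 to 8 for BIO aggregates and dispersed cells, 6 to 7 after BIO and then DMSO and 7 to 9 after 48 h of BIO, and otherwise from 1 to 2 for the second day of BIO and 4 to 6 for the DMSO day.

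Same-numbered arrays of different groups had a mean correlation of deviations from their group means of -0.04 (63 pairs, -0.39 to 0.26), against 0.02 for different numbers. Deviations cancel within each group, so the latter value is tied to the former. These values cannot show whether some groups were paired. With the replicate number as a block the counts were the same in all 14 comparisons, among them 7 for BIO in aggregates. The share of rises among all calls moved by over 10 points with scaling for BIO in aggregates (58.4% to 47.1% with the deposited scaling), aggregation in DMSO (70.0% to 39.0% with the deposited scaling and 86.3% with median centring), aggregation in BIO (73.0% to 48.5% and 84.7%), BIO aggregates against fresh cells (64.9% to 49.0%), DMSO aggregates against fresh cells (55.9% to 69.0% with median centring) and the DMSO day after BIO (34.8% to 52.6%). Signal limits Nr4a3 and the probe sets with arrays below background, among them dim probe sets of Nr4a2, Nr4a3, Ier5 and Egr3 and the second Egr2 probe set in dispersed cells with BIO.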
